A study of Canis lupus familiaris with 10 samples.

Results

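Levels of C1QA, C1QB and CLU were examined in early and late stages of canine cutaneous histiocytoma (CCH). These 3 of the 800 genes on the panel form 1 set because 2 of them encode chains of complement C1q and CLU encodes clusterin, a fluid-phase complement regulator. CLU was taken up because it already stood out between the stages. For that reason the stage differences of all 3 genes are given as descriptions with no test.

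CCH is a benign skin tumor of dogs that derives from Langerhans cells, the dendritic cells of the epidermis, and usually regresses as lymphocytes enter it. Early CCH (n = 5), which is group 1 in the grading of Cockerell and Slauson, was compared with late CCH (n = 5), the lymphocyte-enriched group 3. Each tumor came from a different pet dog. The early dogs with a stated age were 0.5 to 5 years old and the late dogs 1.5 to 9 years. Early replicates 1, 2 and 4 and late replicates 1, 3, 4 and 5 came from male dogs. Early replicate 5 and late replicate 2 came from females, and early replicate 3 had no stated sex or age. All tumors were archival formalin-fixed, paraffin-embedded (FFPE) specimens, and tumor-adjacent tissue had been removed before RNA extraction. Barcoded probes of the nCounter Canine IO Panel were counted on the extracted RNA without amplification. Values are the deposited normalized counts, scaled by positive controls and then by housekeeping genes, and rank tumors only within a gene, since probes of different genes need not count equally well.

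C1q is the recognition part of the first complement component, C1. It is assembled from A, B and C chains, binds antibody in immune complexes as well as dying cells, and activates the proteases C1r and C1s, which then cleave C4 and C2. Unlike most complement proteins, which come mainly from the liver, C1q is made chiefly by macrophages and related myeloid cells in tissue. Clusterin, also called apolipoprotein J, is a secreted chaperone and lipid carrier that binds terminal complement proteins and limits assembly of the membrane attack complex. Many cell types make it, especially under stress. In the RefSeq annotation of the dog assembly UU_Cfam_GSD_1.0, C1QB, C1QC, LOC119870434 and C1QA follow each other in that order on chromosome 2, while CLU lies on chromosome 25. C1QC was not analysed here.

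The stages also differed in technical measures. All early tumors were run on 1 nCounter cartridge and all late tumors on another, so stage and cartridge cannot be told apart. The number of barcode counts recovered per sample from the normalized values was 484696 to 823763 in early and 945399 to 1253083 in late CCH. The labelled DV200, the percentage of RNA fragments over 200 nucleotides, was 64.5 to 71.2 in early and 71.2 to 75.8 in late CCH. For late replicate 5 the label and the study's sample sheet give different DV200 values, and the label was used in every fit with DV200. Across the 761 genes with a mean of at least 20, the median log2 difference, early minus late, was -0.18 with the deposited scaling. Scaling by the geometric mean of all genes moved that median to 0.21, so changes are also given relative to the panel. CD207, which encodes langerin and defines Langerhans cells, was above background (mean plus 2 SD of the negative probes) in 1 of 5 early and 1 of 5 late samples. The defining marker of the labelled tumor type was thus at or near background in most tumors of both stages. CD1A6, a further marker of these cells, was above background in 4 of 5 early and 5 of 5 late samples, at 175 ± 209 and 50.3 ± 24.1 normalized counts (SD, n = 5). Early replicate 4 alone had 534. Background was 21.8 to 38.2 normalized counts in early and 19.2 to 26.9 in late CCH, so these detection counts do not compare the stages.

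CLU was higher in every late tumor than in any early tumor. In early CCH its normalized counts were 1086 in replicate 1, 3791 in replicate 2, 832 in replicate 3, 1660 in replicate 4 and 1118 in replicate 5. In late CCH they were 7340, 10244, 7932, 17251 and 12279 in replicates 1 to 5. The early group was low in 4 tumors with early replicate 2 well above them, and even this tumor stayed below the lowest late tumor. Mean levels were 1698 ± 1209 normalized counts in early and 11009 ± 4003 in late CCH (SD, n = 5 each). On the log2(normalized count + 1) scale, on which all log2 differences are given, the difference was -2.85 (SE 0.40), a 7.23-fold higher level in late CCH, or -2.68 relative to the panel median. Groups that do not overlap were seen for 24.6% of the 761 tested genes, and since CLU was chosen on this contrast, nothing is read from its own separation. CLU was well measured throughout, at no less than 25.6 times background in any tumor.

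C1QB was also higher in late CCH, but with 1 early tumor inside the late range. Its normalized counts in early CCH were 276, 2746, 1606, 295 and 1324 in replicates 1 to 5. In late CCH they were 5997, 2577, 3136, 4317 and 3771. Early replicates 1 and 4 were low, early replicates 3 and 5 were intermediate, and early replicate 2 exceeded late replicate 2. Means were 1250 ± 1029 and 3959 ± 1314 normalized counts (SD, n = 5 each). The log2 difference was -2.14 (SE 0.63), a 4.40-fold higher level in late CCH, or -1.96 relative to the panel median.

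C1QA showed the smallest difference of the 3 genes and the most overlap. Its normalized counts in early CCH were 158, 1014, 542, 128 and 650 in replicates 1 to 5. In late CCH they were 1415, 866, 1024, 905 and 988. Early replicate 2 lay above 3 of the 5 late tumors, whereas early replicates 1 and 4 were again the lowest of all. Means were 498 ± 369 and 1040 ± 219 normalized counts (SD, n = 5 each). The log2 difference was -1.45 (SE 0.54), a 2.74-fold higher level in late CCH, or -1.28 relative to the panel median. The lowest early value was still 3.65 times background and rested on 78 barcode counts, which gives a counting error of 11.3%.

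**Figure D1:**
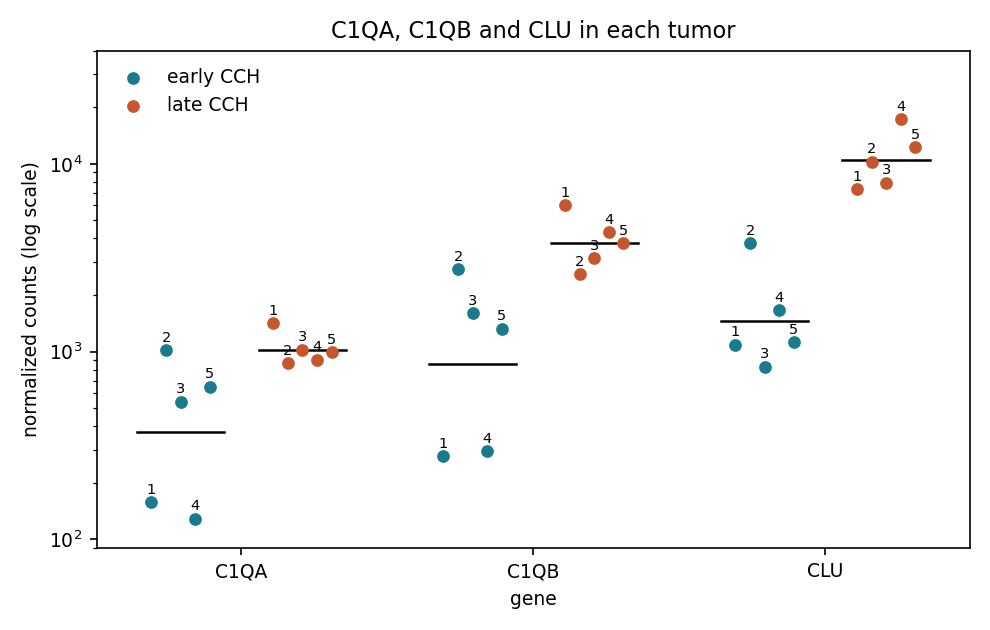
Normalized counts (log scale) of C1QA, C1QB and CLU in each tumor, with early CCH in blue-green and late CCH in orange. Numbers are replicate numbers and bars are geometric means (n = 5 per stage). CLU separates the stages, whereas early replicate 2 reaches the late range for C1QA (1014) and C1QB (2746), and early replicates 1 and 4 are lowest for both C1q chains.

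C1q levels varied more among early than among late tumors, which is given as a description without a test. From the lowest to the highest tumor, C1QA spanned 7.89-fold in early and 1.63-fold in late CCH. C1QB spanned 9.95-fold in early and 2.33-fold in late CCH. The SD of the log2 values was 1.31 against 0.28 for C1QA and 1.50 against 0.46 for C1QB, early against late. CLU varied less among early tumors, with a span of 4.56-fold and a log2 SD of 0.85, against 2.35-fold and 0.50 in late CCH. Removal of a single tumor moved the C1QA log2 difference between -1.81, without early replicate 2, and -1.07, without early replicate 4. For C1QB it moved between -2.55, without early replicate 2, and -1.73, without early replicate 1. For CLU it moved between -3.20, without early replicate 2, and -2.65, without early replicate 3. Because these are bulk samples, more cells that express a gene and more RNA per cell cannot be told apart.

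**Figure D2:**
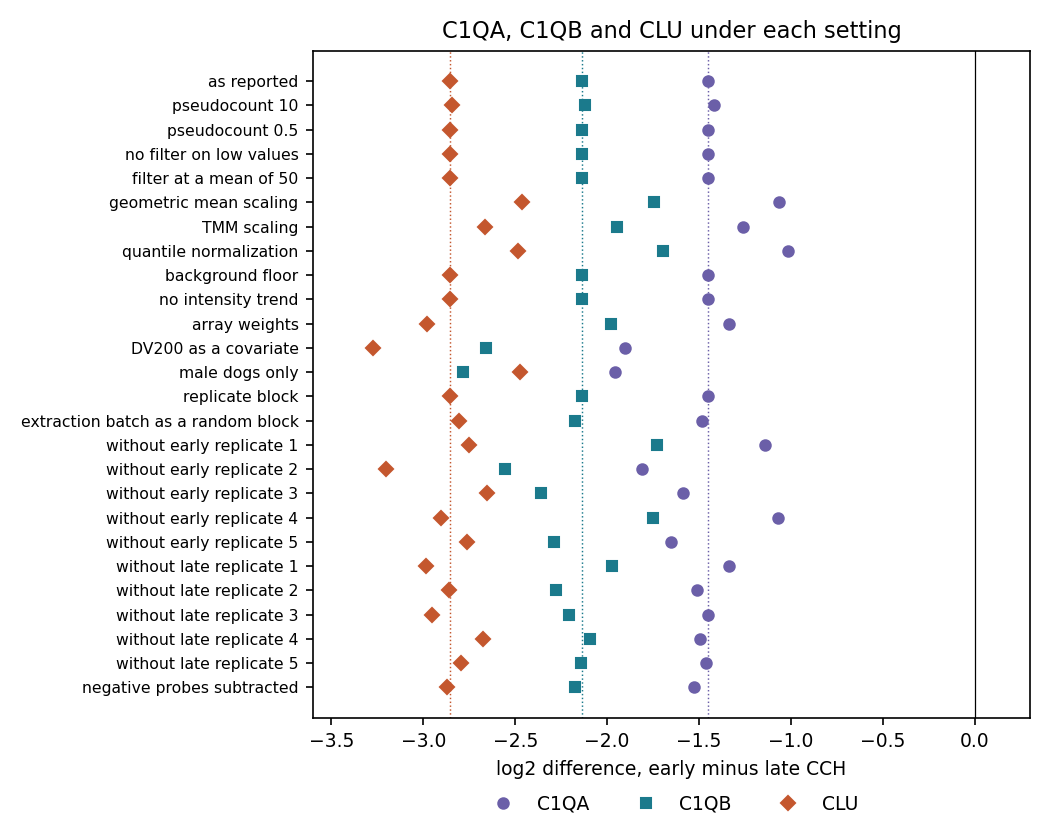
Log2 difference, early minus late CCH, of C1QA, C1QB and CLU under each processing setting and without each tumor. The dotted lines mark the reported values of -1.45, -2.14 and -2.85, and every point lies below 0.

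Both C1q chains varied together from tumor to tumor within a stage. In early CCH, replicate 2 was highest and replicates 1 and 4 lowest for both. In late CCH, replicate 1 was highest and replicate 2 lowest for both. After each value was set against its stage mean, Pearson's r between log2 C1QA and log2 C1QB was 0.97 (exact two-sided permutation within stages, p = 0.0042, n = 10), with a Benjamini-Hochberg (BH) adjusted p of 0.0375 over 9 relations. Spearman's rho was 0.70 (exact permutation p = 0.0522, adjusted 0.235, n = 10), so the relation passed as a linear one and not by ranks. Among male dogs only, r was 0.98 and its permutation p did not pass, with fewer permutations possible among fewer tumors. Without early replicates 2 and 4, the tumors farthest from the median of C1QA, r was 0.94. Much of the spread behind r came from the early tumors.

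No relation of CLU to the C1q chains was detected within stages. Its within-stage r was 0.21 with C1QA (exact permutation p = 0.759, adjusted 0.902, rho -0.20, p = 0.640, n = 10) and 0.27 with C1QB (p = 0.667, adjusted 0.902, rho 0.10, p = 0.842). Without the 2 farthest tumors these became -0.27 and 0.33. Without early replicate 2, which was high for all 3 genes, they became -0.53 and -0.40, and among male dogs only they were 0.61 and 0.71. Early replicates 3 and 5, for example, had more C1QA and C1QB than early replicates 1 and 4, but CLU at 832 and 1118 against 1086 and 1660.

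**Figure D3:**
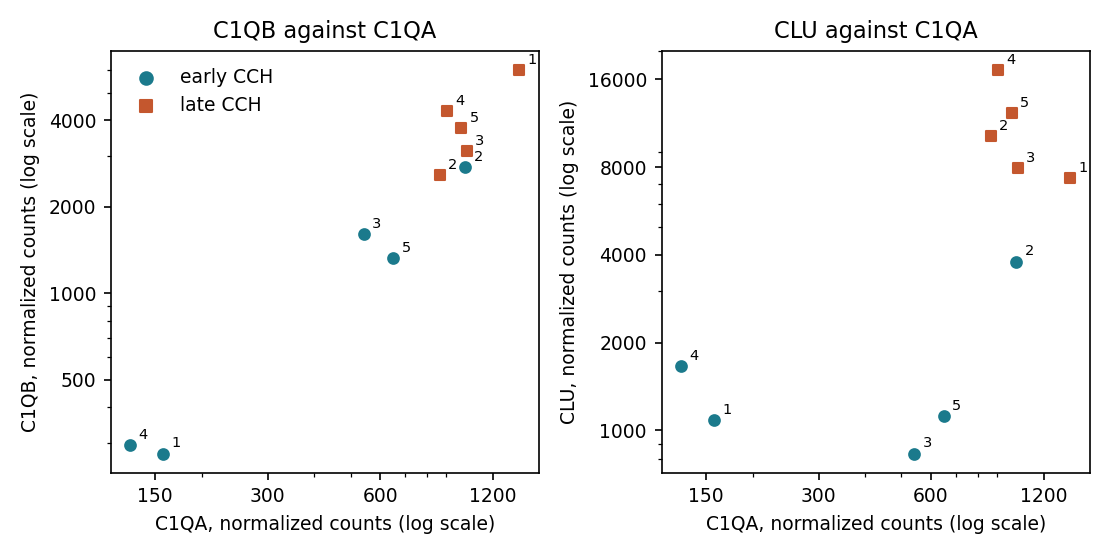
C1QB (left) and CLU (right) against C1QA in normalized counts, both axes on a log scale, with 1 point per tumor and replicate numbers beside the points. The C1q chains increase together, with a within-stage r of 0.97, whereas CLU against C1QA has a within-stage r of 0.21.

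The ratio of C1QB to C1QA, which no scaling of a sample can change, was 2.35 ± 0.49 in early and 3.77 ± 0.77 in late CCH (SD, n = 5 each). In early CCH it was 1.75, 2.71, 2.97, 2.29 and 2.04 in replicates 1 to 5. In late CCH it was 4.24, 2.98, 3.06, 4.77 and 3.82. The late values were the higher ones, but early replicate 3 and late replicate 2 touched, and their gap was smaller than the counting errors of 6.73% and 4.13% on these ratios. With the mean of the negative probes subtracted the order of this pair turned, at 3.03 against 3.01, and the groups overlapped. On the log2 scale the stage difference of C1QA was 0.69 less negative than that of C1QB.

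TNFSF13B and CD209 were among the genes whose within-stage pattern was most like that of both C1q chains. For C1QA, the genes with the highest within-stage r over 10 tumors included C1QB (0.97), TNFSF13B, which encodes the B cell survival factor BAFF (0.91), the C-type lectin gene CD209 (0.91) and ITGAM (0.90), the alpha chain of complement receptor 3. For C1QB they included C1QA (0.97), TNFSF13B (0.91), CD209 (0.89) and the adenosine receptor gene ADORA3 (0.87). These r values come from a search of all tested genes and carry no test. CD209 had 346 and 217 normalized counts in early replicates 1 and 4, against 4122, 2126 and 1271 in early replicates 2, 3 and 5. The same 2 tumors were the lowest early ones for C1QA and C1QB. A like pattern within stages did not mean a like stage difference, as the log2 difference was -1.90 (SE 0.73) for CD209, -0.06 (SE 0.28) for TNFSF13B and 0.39 (SE 0.60) for ITGAM.

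For CLU the most similar genes were others. They were CXCL8, which encodes the neutrophil chemoattractant interleukin-8 (0.91), the transferrin receptor gene TFRC (0.83), the growth factor gene HBEGF (0.81), the junctional adhesion gene JAM3 (0.80) and C1R (0.76). CXCL8 stood at 1937 normalized counts in early replicate 2 and between 55.1 and 158 in the other early tumors. Early replicate 2 was also the highest early tumor for CLU. In late CCH, CXCL8 ranged from 236 to 834. JAM3 spanned only 104 to 220 over all tumors.

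The remaining complement genes were tested, since they were not used to choose C1QA, C1QB and CLU, although their list was drawn up with earlier results of these data known. Of 43 listed genes, 30 were measured and 25 passed the filter on low values. With limma and a BH-adjusted p of at most 0.05, 8 of the 25 (32%) were higher in late CCH, beside 27.3% of all tested genes, and 1 (4%) was higher in early CCH, beside 8.41%. By the study's stricter rule, which asks for an adjusted p after Benjamini and Yekutieli (BY) no higher than 0.05 and a change no smaller than 2-fold, 3 of 25 (12%) were higher in late CCH, beside 9.2% of the panel, and 0 were higher in early CCH, beside 1.97%. With these thresholds the study itself, which used nSolver rather than limma, reported no differentially expressed gene in its nCounter comparison of the CCH stages. In early CCH, 1 of the 25 was higher at an unadjusted p under 0.05. The complement genes as a list were thus near the panel in these counts, with a median log2 difference of -0.11 against -0.18. The split of the panel itself depended on scaling, with 208 genes higher in late and 64 in early CCH as deposited, 152 and 193 with geometric mean scaling, and 144 and 180 with quantile normalization.

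The 3 genes that passed the strict rule were C1R and C1S, both tested genes of the C1 complex list, and SERPING1, 1 of 6 tested regulators. C1R, which encodes the protease that C1q activates first, was at 515 ± 121 normalized counts in early and 1402 ± 322 in late CCH (SD, n = 5), a log2 difference of -1.44 (SE 0.21, limma, BH-adjusted p = 0.0017, BY-adjusted p = 0.0120). C1S, the protease that C1r activates, was at 1430 ± 184 and 2930 ± 739, a log2 difference of -1.01 (SE 0.18, limma, BH-adjusted p = 0.0033, BY-adjusted p = 0.0238). SERPING1, which encodes the C1 inhibitor that removes both proteases from C1q, was at 1866 ± 409 and 4327 ± 583, a log2 difference of -1.23 (SE 0.18, limma, BH-adjusted p = 0.0016, BY-adjusted p = 0.0118). All 3 were higher in each late tumor than in any early tumor, and they were the only tested complement genes of the 25 without overlap (12%, beside 24.6% of the panel). C1R and SERPING1 passed the strict rule without any single tumor, whereas C1S did so in 4 of 10 such fits, its fold change over all tumors being 2.01. C1S also did not pass the strict rule with TMM scaling (-0.82) or with the extraction batch as a random block (-0.99). With DV200 as a covariate, among male dogs only, or with a replicate block, none of the 3 passed the strict rule, although all 3 kept a BH-adjusted p of at most 0.05. The log2 differences of C1R, C1S and SERPING1 were -1.50, -1.27 and -1.48 with DV200, -1.29, -1.08 and -1.37 among male dogs only, and unchanged with the block. With geometric mean scaling or quantile normalization, C1R and C6 were the genes of the 25 that passed it, C6 as higher in early CCH.

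Downstream of C1, genes of both C2 and C3 were higher in late CCH. C2, cut by C1s to form the classical C3 convertase, rose from 456 ± 273 to 939 ± 230 normalized counts (log2 difference -1.17, limma, BH-adjusted p = 0.0244), with early replicate 2 at 923 inside the late range. C3, the central component that marks surfaces for uptake, ranged from 272 to 980 in early and from 772 to 3372 in late CCH (log2 difference -1.75, limma, BH-adjusted p = 0.0176). C2 kept its call in 4 of 10 fits that each left out 1 tumor and lost it with geometric mean scaling (-0.78), quantile normalization (-0.70), DV200 as a covariate (-1.72) and male dogs only (-1.04). C3 kept it in all 10 and lost it with DV200 (-2.41) and the replicate block (-1.75), without a smaller log2 difference. Genes for C4 were not analysed here, and C5 was near background.

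Of the alternative pathway, CFB, whose product forms the alternative C3 convertase with C3b, was higher in late CCH at 482 ± 308 against 148 ± 86.5 normalized counts (log2 difference -1.68, limma, BH-adjusted p = 0.0193) and passed in 10 of 10 fits that left out a tumor, but not with quantile normalization (-1.04) or among male dogs only (-1.77). CFD and CFP, the genes of factor D and properdin, did not pass, with log2 differences of 0.23 and 0.04. The lectin pathway was represented by MASP1 alone, which did not pass (0.50), while MASP2 and MBL2 were near background.

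Terminal pathway genes, on whose products clusterin acts, included 4 tested genes, of which 1 passed as higher in early CCH, beside 8.41% of the panel. C6 was at 130 ± 36.6 against 74.3 ± 14.7 normalized counts (log2 difference 0.76, limma, BH-adjusted p = 0.0437), but passed in only 2 of 10 fits that left out a tumor. It also lost the call with DV200 (0.55), among male dogs only (0.63) and with the replicate block (0.76). C7 (-0.52), C8A (0.44) and C8G (0.22) did not pass, and C8B and C9 were near background. Of the membrane regulators, CD55, which speeds decay of the convertases, had a log2 difference of -0.04, and CD59, which blocks the membrane attack complex, had 0.15. Neither passed, nor did CFI (-0.38), C4BPA (0.45) or CR1L (-1.34). Past BH in some alternatives were C4BPA with geometric mean scaling and quantile normalization, C8A with geometric mean scaling, and CR1L without early replicate 2.

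Among binding partners of C1q and complement receptors, 2 of 7 tested genes were higher in late CCH, a share like the 27.3% of the panel. C1QBP, a mitochondrial protein that also binds C1q, was at 605 ± 92.0 and 611 ± 68.0 normalized counts in early and late CCH, and LRP1, a receptor in uptake of dying cells, had a log2 difference of 0.07. Neither passed the test. CR2, the complement receptor of B cells and follicular dendritic cells, was higher in late CCH (log2 difference -1.89, limma, BH-adjusted p = 0.0357), and so was ITGB2, the shared beta chain of complement receptors 3 and 4 (-0.73, limma, BH-adjusted p = 0.0469). These passed in 4 and 3 of 10 fits without a tumor. Both lost the call with geometric mean scaling, quantile normalization, DV200 and male dogs only, and ITGB2 also with TMM scaling, the background floor, no intensity trend and the replicate block, with a log2 difference as small as -0.34. C3AR1, the C3a receptor gene, did not pass (-0.37), nor did ITGAM (0.39) or ITGAX (-0.11), the alpha chains that pair with ITGB2.

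**Figure D4:**
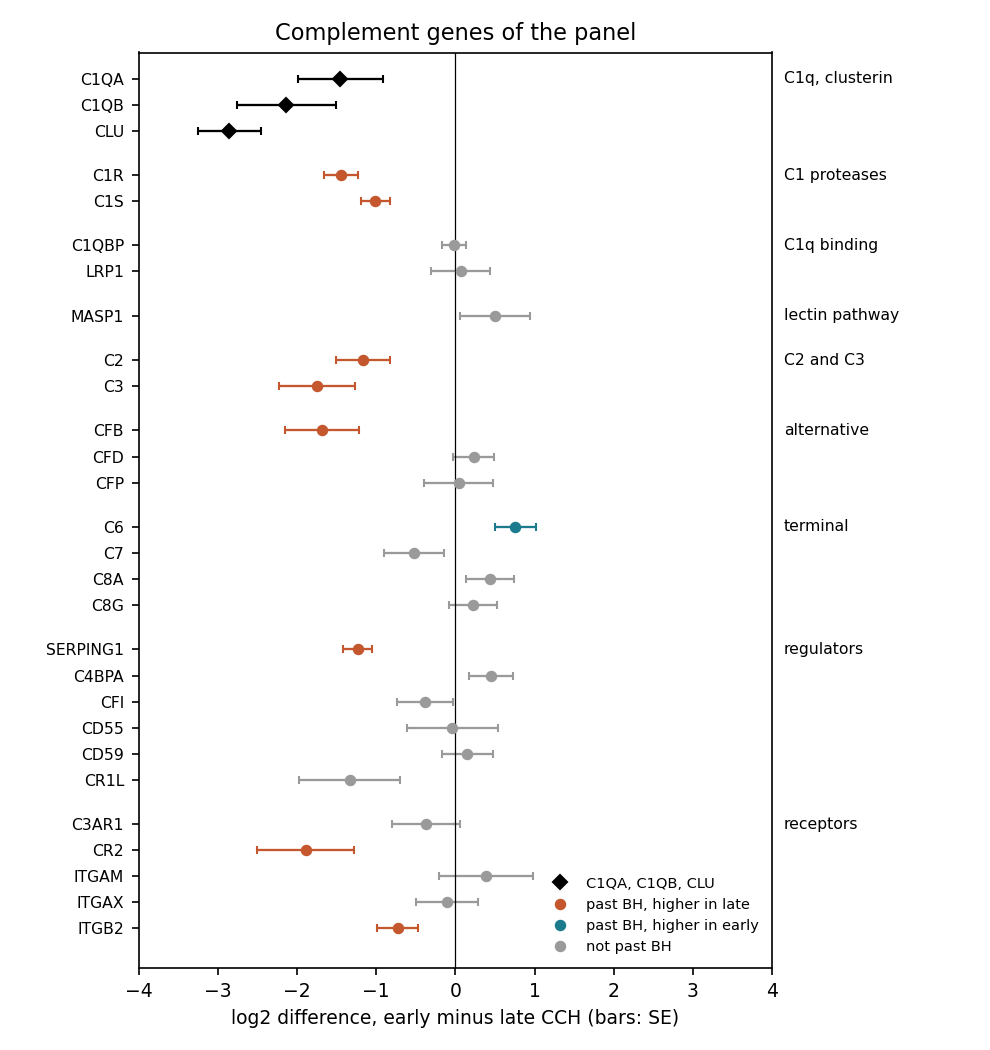
Log2 difference, early minus late CCH, of C1QA, C1QB, CLU (black diamonds, not tested) and the 25 other tested complement genes, grouped by role, with bars for the SE and color where the BH-adjusted p was at most 0.05 (orange, higher in late; blue-green, higher in early). C1R, C1S and SERPING1 lie below -1 with short bars, whereas most terminal genes, regulators and receptors lie around 0.

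Macrophages are a main source of C1q, and their markers did not move as one. Of 12 macrophage markers, 4 were higher in late CCH by BH-adjusted p (limma) and 0 were higher in early CCH, near the 27.3% and 8.41% of all tested genes, and the median log2 difference was -0.64. At an unadjusted p under 0.05, 5 of the 12 differed. The 4 became 2 without late replicate 1, with geometric mean scaling and among male dogs only. Panel genes higher in late CCH in these fits were 173 of 764, 152 of 761 and 108 of 751, against 208 of 761 as reported. Their summed level was 4443 to 10538 normalized counts in early and 9120 to 17580 in late CCH. CD68, a lysosomal glycoprotein gene, was higher in late CCH at 1787 ± 438 against 741 ± 226 (log2 difference -1.29, limma, BH-adjusted p = 0.0041). The others that passed were MSR1 (-1.67), MERTK (-1.36) and APOE (-2.06), which are a scavenger receptor, a receptor for dying cells and a lipid carrier and were named after their values were seen. CD163 (-0.31), CD14 (-0.35), CSF1R (-0.42) and MARCO (-1.65) did not pass, and MRC1, the mannose receptor gene, pointed the other way (1.00, limma, BH-adjusted p = 0.0508). MRC1 did pass as higher in early CCH in 8 alternatives, which were a pseudocount of 10, the filter at a mean of 50, geometric mean, TMM and quantile scaling, array weights, the extraction batch as a random block and the fit without early replicate 1. MARCO was below background in early replicates 4 and 5 and late replicate 3.

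No relation of the mean log2 level of the macrophage markers to the C1q chains within stages passed the adjusted threshold. The r was 0.71 with C1QA (exact permutation p = 0.0127, adjusted 0.0572, rho 0.55, p = 0.145, n = 10) and 0.72 with C1QB (exact permutation p = 0.0193, adjusted 0.0579, rho 0.75, p = 0.0336, n = 10). For C1QA it fell to 0.34 without early replicates 2 and 4 and thus rested on them, and for C1QB it was 0.67 without early replicates 1 and 4. With CLU the r was 0.37 (exact permutation p = 0.347, adjusted 0.780, rho 0.10, p = 0.842, n = 10), and -0.19 without early replicate 2. The part of macrophage number in the stage differences of the C1q chains was not tested.

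Markers of other cell types were counted in the same way, beside 27.3% of the panel higher in late and 8.41% higher in early CCH. All 12 T cell markers were higher in late CCH by BH-adjusted p (limma), with a median log2 difference of -2.73 and a summed level of 550 to 10495 in early against 14055 to 22753 normalized counts in late CCH. CD3E had a log2 difference of -3.18 (limma, BH-adjusted p = 0.0318). The 12 became 7 without early replicate 5, 8 without late replicate 4, 6 among male dogs only and 1 with DV200 as a covariate. The panel also lost calls, from 208 of 761 genes higher in late CCH to 169 of 757, 168 of 763, 108 of 751 and 28 of 761 in these fits. Panel genes higher in early CCH were 64 as reported, 27 among male dogs only, 17 with DV200 and 193 with geometric mean scaling. Yet the within-stage r of the T cell markers was 0.13 with C1QA, 0.29 with C1QB and 0.09 with CLU (exact permutation p = 0.820, 0.582 and 0.902, n = 10), with rho of -0.15, 0.55 and 0.10 (p = 0.735, 0.145 and 0.842). Of 8 B cell markers, 5 were higher in late CCH (3 without late replicate 4, 2 with the background floor or among male dogs only and 0 with DV200, where 1 had an unadjusted p under 0.05 in limma), with summed levels of 1620 to 2352 and 1764 to 8400. Of 10 Langerhans and dendritic cell markers, 3 were higher in late and 2 in early CCH (2 and 3 with geometric mean scaling, 3 and 3 with TMM scaling or the extraction batch block, 2 and 1 among male dogs only, 0 and 1 with DV200, where 3 had an unadjusted p under 0.05 in limma). FLT3, a growth factor receptor gene of dendritic cells, was higher in early CCH (log2 difference 2.49, limma, BH-adjusted p = 0.0014). Of 8 fibroblast markers 1 was higher in late CCH, which became 2 in 6 alternatives, among them the fits without early replicate 2 or late replicate 3. Of 6 endothelial markers 2 were higher in late CCH, which became 1 with geometric mean, TMM or quantile scaling and 0 with DV200 or among male dogs only, where 0 and 2 had an unadjusted p under 0.05 in limma. Of 6 keratinocyte markers 0 passed in limma in either direction and 1 had an unadjusted p under 0.05, while 2 were higher in early CCH with geometric mean scaling or quantile normalization and 1 with TMM scaling or without late replicate 2. Of 8 neutrophil markers 1 was higher in late CCH (2 without early replicate 2), and 1 in early CCH was added with geometric mean scaling, but among male dogs only 3 were higher in early and 0 in late CCH, and with DV200 none passed in limma and 1 had an unadjusted p under 0.05. Of 4 mast cell markers 2 were higher in early CCH, a count that fell to 1 with the background floor, among male dogs only or without early replicate 4, early replicate 5 or late replicate 4, and to 0 with DV200, with array weights or without early replicate 1, early replicate 2 or late replicates 1, 3 or 5. The part of any of these cells in the CLU difference was not tested.

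**Figure D5:**
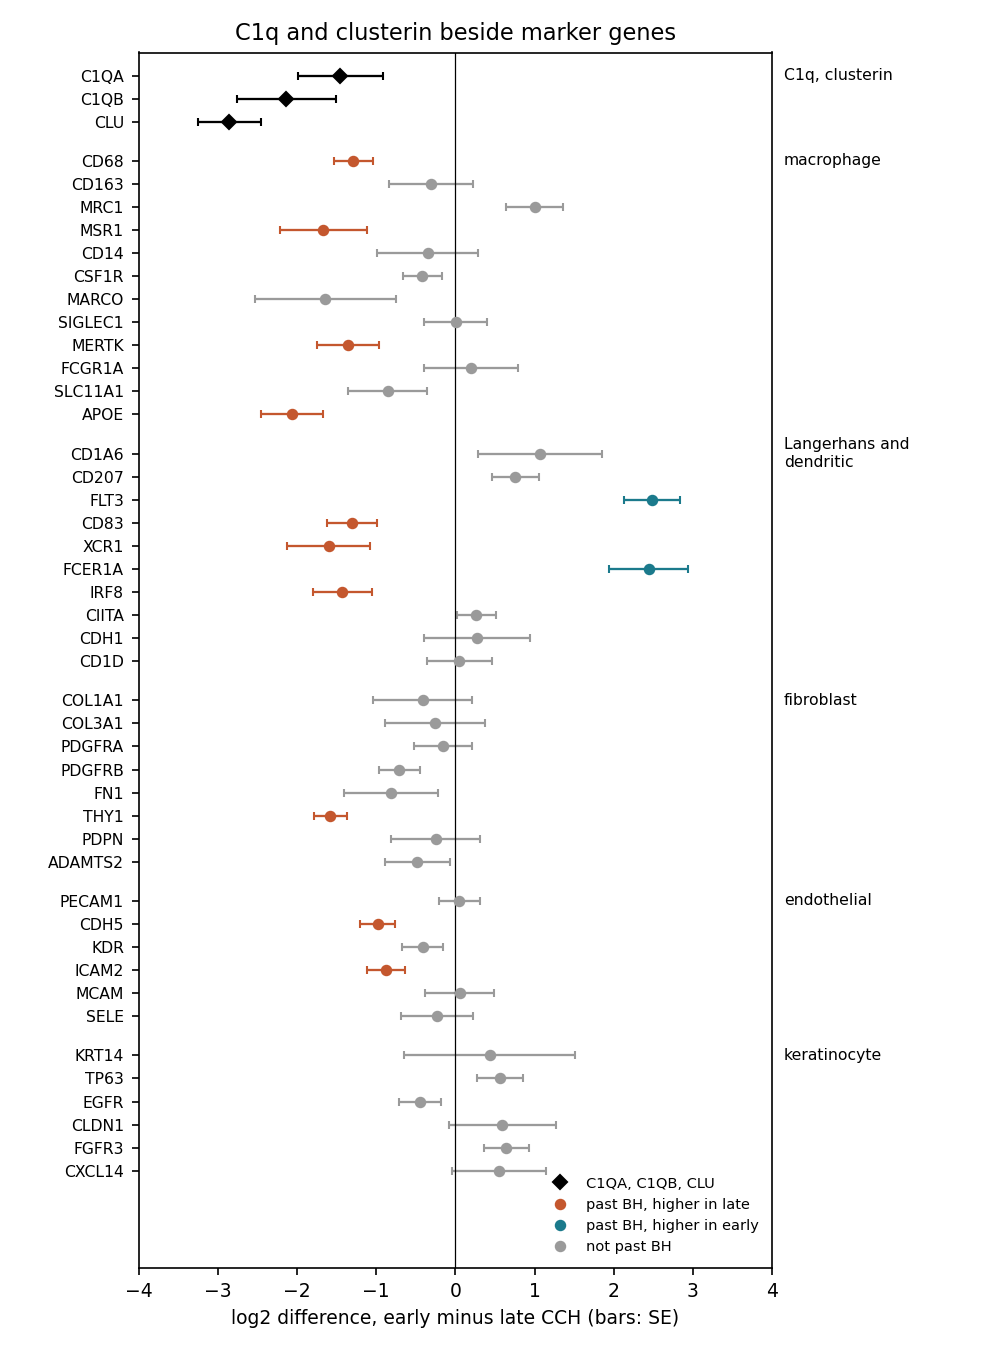
Log2 difference, early minus late CCH, of C1QA, C1QB and CLU (black diamonds, not tested) beside marker genes of macrophages, Langerhans and dendritic cells, fibroblasts, endothelium and keratinocytes, with bars for the SE and color where the BH-adjusted p was at most 0.05 (orange, higher in late; blue-green, higher in early). Macrophage markers spread from APOE (-2.06) to MRC1 (1.00). T cell and B cell markers are not drawn.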

How the data were processed

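Total RNA from 10 FFPE tumors was hybridized by the authors to the nCounter Canine IO Panel, whose probes were designed on CanFam3.1, and counts were normalized by the authors in nSolver 4.0, first to positive controls and then to housekeeping genes. The deposited values are this normalized signal on a linear scale for 800 genes, beside 14 control probes. No background subtraction was stated. Barcode counts were recovered by dividing each sample by its smallest step (at least 99.4% of genes whole within 0.0051) and served for depth and counting errors. The same step put the negative probes on the normalized scale. Intervals of counting error cover counting alone.

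Differential expression was computed in R 4.3.3 by linear models of limma 3.58.1 (eBayes, trend on) after taking log2(normalized count + 1), which understates changes of low genes, with late CCH as baseline. Genes with a mean under 20 were left out. The study's thresholds (0.05 on the BY-adjusted p, with a change of 2-fold or more) were used beside BH. The authors' count model was not applied to normalized values. The fit was tested on simulated data. TMM scaling was computed from its published formula.

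C1QA, C1QB and CLU, the complement and marker lists and the rule for named genes were chosen with earlier results of these data known. Named were every listed complement gene past BH, a preset set of complement and marker genes, and the 5 tested genes most like each of C1QA, C1QB and CLU within stages, of which 1 is not reported here. The within-stage permutation tests and the subtraction of negative probes were chosen after seeing the data. Dogs were the replicates, so p-values measure the spread between single tumors. Gene order came from the RefSeq table of UU_Cfam_GSD_1.0, which gave no sequences here.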

Additional observations from a re-analysis of the deposited data

Results flagged for a closer look

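A sample was picked out where its gap to the nearest other tumor of its stage exceeded Dixon's 95% critical value for 5 samples. Of 56 groups checked among the named complement and marker genes, 6 (10.7%) held such a tumor. The gaps were taken on linear normalized counts, whereas the 5% level of this rule holds for normally distributed values. The share is therefore not read against chance. C1QA in late replicate 1 was 1415 normalized counts against 866 to 1024 in the other late tumors, a gap of 0.711 of the range. CLU in early replicate 2 was 3791 against 832 to 1660 (0.720). CD163, a macrophage scavenger receptor gene, was 1262 in the same early tumor against 133 to 424 (0.742), and 869 in late replicate 2 against 331 to 484 (0.715). CD55 in late replicate 1 was 1280 against 172 to 363 (0.828). CR2 in late replicate 3 was 898 against 86.4 to 318 (0.715).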

How the results depend on the processing

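The log2 differences of C1QA, C1QB and CLU stayed negative in all 25 alternatives, between -1.96 and -1.02, -2.78 and -1.69, and -3.27 and -2.46, and the C1QA to C1QB log2 ratio stayed between 0.59 and 0.83. Of the other complement genes, 8 higher in late CCH by BH became 5 with geometric mean scaling and 4 each with quantile normalization, DV200 as a covariate and male dogs only, and ranged from 5 to 9 when single tumors were left out (5 without early replicate 3, early replicate 4 or late replicate 2). Of the panel, 208 of 761 genes were higher in late CCH as reported and 152 with geometric mean scaling. Panel counts were 144 with quantile normalization, 28 with DV200, 108 of 751 among male dogs only and 168 to 210 without single tumors. The 1 gene higher in early CCH became 3 with geometric mean scaling, 2 with quantile normalization and 0 with DV200, male dogs only and the replicate block, and ranged from 0 to 2 when single tumors were left out, with 2 without early replicate 1, where C9 came above the filter on low values and passed. The panel had 64 genes higher in early CCH as reported, 193 with geometric mean scaling and 180 with quantile normalization. It had 17 with DV200, 27 among male dogs only, 46 with the replicate block and 43 to 64 without single tumors. The 3 genes that passed the strict rule became 0 with DV200, male dogs only and the replicate block (limma, where 6, 7 and 8 of the 25 had an unadjusted p under 0.05). Fewer samples or residual degrees of freedom enter these fits. DV200 was 64.5 to 71.2 in early and 71.2 to 75.8 in late CCH, so its fit can hardly tell DV200 and stage apart. Across the panel, DV200, male dogs only and the replicate block left 0, 0 and 1 genes past that rule. The replicate numbers did not pair the tumors, since same-numbered tumors had deviations that correlated between -0.20 and 0.16. With the replicate block the C1QA, C1QB and CLU differences were unchanged at -1.45, -2.14 and -2.85 by construction. Extraction batches, which were matched to tumors here by the stage, breed and age in the study's sample sheet, held 1 stage each and as a random block left 2 complement genes past the strict rule. This block cannot separate batch from stage. Its consensus correlation was negative (-0.14), and it left 118 genes of the panel past the strict rule, against 85 as reported. The macrophage markers higher in late CCH were 2 to 5 over all alternatives. Within-stage correlations turned negative for C1QA with T cell markers under geometric mean scaling (-0.078) and quantile normalization (-0.150), and for CLU with T cell markers under both (-0.133 and -0.041). Without single tumors, r ranged from -0.527 to 0.367 for C1QA with CLU, -0.397 to 0.487 for C1QB with CLU and -0.188 to 0.580 for CLU with macrophage markers, each lowest without early replicate 2. It ranged from -0.507 to 0.627 for C1QA, -0.313 to 0.741 for C1QB and -0.148 to 0.467 for CLU with T cell markers, each lowest without early replicate 1. The causes were not tested.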
